A study of Rattus norvegicus with 6 samples.

Results

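The BCL2 family of death regulators was examined in crushed and intact sciatic nerves of rats. The members were chosen by gene name, as 10 family genes that divide into survival proteins (Bcl2, Bcl2l1, Mcl1), pore-forming effectors (Bax, Bak1) and BH3-only death proteins (Bcl2l11, Bad, Bid, Bbc3, Pmaip1). Of the 10, 8 have a row among the 30957 Ensembl genes of the deposited table, and Mcl1 and Bbc3 were not analysed here. RNA-seq was performed on 3 crushed nerves and on 3 uninjured nerves of the other side, all from Sprague Dawley rats with no further treatment named. The methods give adult males, a forceps crush and collection of the proximal stump 4 days postinjury (dpi), while the sample labels give no time point. The sources differ on the side that was crushed, and the labels do not tie the nerves to single rats, so p-values measure the spread between these samples, which may in part be technical. For each nerve the table holds read counts per gene and FPKM, a read density scaled to gene length and library size. FPKM is used below to set levels of different genes side by side. The methods also give removal of rRNA and an RNase R treatment before library preparation. How these steps affect levels between genes was not tested. Total counts per nerve lay between 24844371 and 27139360. Of the 12393 genes that passed an expression filter, 182 rose and 205 fell in crushed nerves at a Benjamini-Hochberg adjusted p under 0.05 from edgeR's quasi-likelihood test, the rule used below for "rose" and "fell".

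The expression of tissue markers departed from the label of sciatic nerve. Of 11 Schwann cell markers, 5 had at most 3 counts in every nerve, among them Mbp, Sox10, S100b and Cdh19, whereas Prx, Pmp22, Gfap and Egr2 were among those that passed the filter. Of 8 macrophage markers, Ptprc, Adgre1, Cd163 and C1qa had 0 counts in all 6 nerves, while Cd68 and Csf1r passed the filter. Of 5 fibroblast markers Col1a2, Dcn and Lum had 0, while Col1a1 and Pdgfra passed. The 4 markers of cycling cells summed to between 2851 and 3066 normalized CPM (counts scaled to library size) in intact nerves and to between 2722 and 2855 in crushed nerves. The values below are therefore those of the libraries labelled as crushed and intact nerve. Fewer cells of a type and less RNA per cell cannot be told apart in such bulk samples.

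Proteins of the BCL2 family decide at the outer mitochondrial membrane whether a cell enters apoptosis. Bax and Bak1 form pores through which cytochrome c leaves the mitochondrion, survival proteins such as Bcl2 and Bcl2l1 (BCL-XL) hold them in check, and BH3-only proteins either neutralize the survival proteins or activate the effectors. Cytochrome c then binds Apaf1, and the resulting apoptosome activates Casp9, which in turn activates executioner caspases. Schwann cells of an injured nerve are known to lose contact with axons and to re-enter the cell cycle, and the balance of survival and death signals bears on their number. Much of the control of this family takes place on proteins, by cleavage, phosphorylation, binding and degradation, which RNA levels do not show.

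All 8 members with a row passed the expression filter. Of these, 1 rose in crushed nerves, against 1.47% of all genes tested, and 0 fell, against 1.65% of all genes. The gene that rose was Bid, by 14.9%. No member was lower at an unadjusted p under 0.05 either, where 1177 of the 12393 genes tested were lower. In DESeq2 and in limma on FPKM the counts were likewise 1 higher and 0 lower. The count of higher members was 0 without the filter on low counts (edgeR adjusted p of Bid 0.0568) and 0 whenever any 1 nerve was left out. By the limits used in the study's methods (absolute log2 fold change above 1 and p under 0.001, read as unadjusted), 0 members were called, against 0.282% of genes. At an unadjusted p under 0.05 alone, 2 members were higher, Bid and Bcl2l11, against 6.71% of genes. The median log2 fold change was 0.04 over the 8 members and -0.0017 over all genes tested, and the widest member change was 0.20 on the log2 scale.

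In 4 of the 8 members (Bid, Bcl2l11, Bak1 and Pmaip1) every crushed nerve lay above every intact nerve, against 10.8% of all genes tested. In none of the 8 did every crushed nerve lie below every intact nerve, against 12.2% of all genes. With 3 nerves against 3, an exact permutation test (two-sided) cannot give a p below 0.1 for a single gene. The 4 separated members all encode death proteins, but 6 of the 8 members with a row are death members. Neither survival member with a row showed such a separation. Among 6 other family genes that were listed here as death genes and tested, Bcl2l12 included, 0 separated upward and 1 (Bok) downward. Because the members were chosen with results of these data known, no test over the 8 genes is given.

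**Figure D1:**
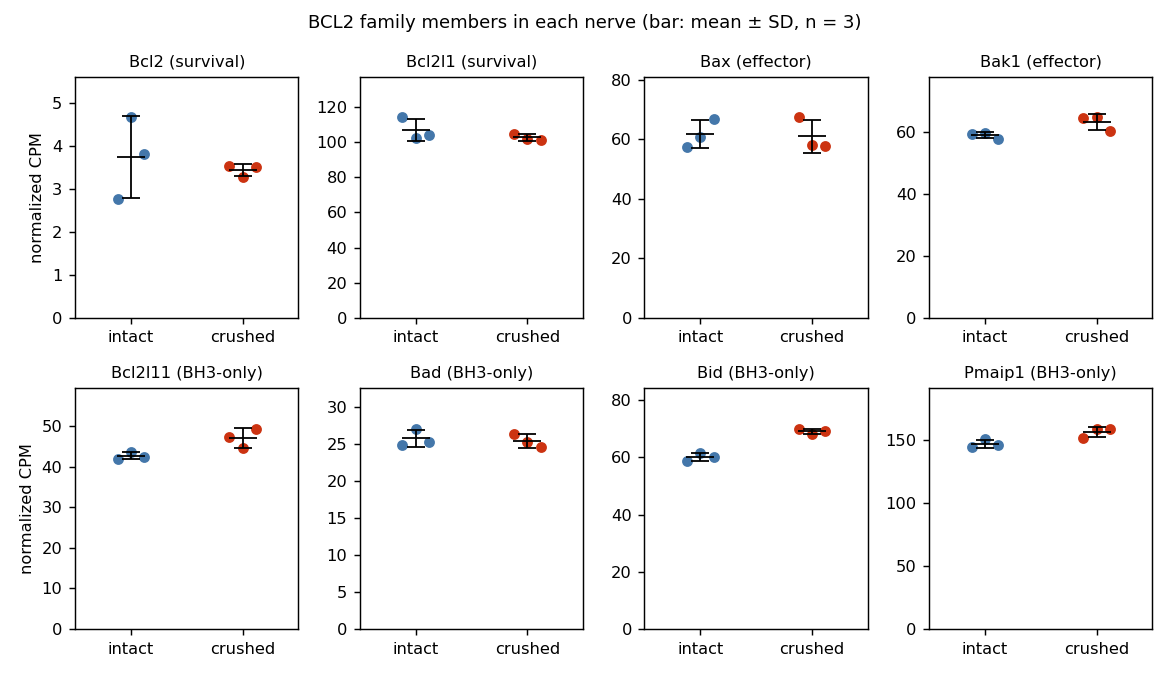
Normalized CPM (vertical axes, each from 0) of the 8 members in 3 intact (blue) and 3 crushed (red) nerves, 1 point per nerve, with the mean and SD as black bars. The groups are apart for Bid, Bcl2l11, Bak1 and Pmaip1 and overlap for Bcl2, Bcl2l1, Bax and Bad.

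The sequences before the gene starts of these 4 members are shown because they are the members whose groups did not overlap. Each run holds the 250 bases before the start, 5′ to 3′ on the gene's strand, from RefSeq on the GRCr8 build. Capitals mark GGGCGG (the GC box bound by SP1 factors) on either strand and matches to the NF-kB consensus. The windows are at chr4:155808320-155808569 (minus strand) for Bid, chr18:62255720-62255969 (plus) for Pmaip1, chr3:135819792-135820041 (plus) for Bcl2l11 and chr20:5110975-5111224 (minus) for Bak1.
Bid: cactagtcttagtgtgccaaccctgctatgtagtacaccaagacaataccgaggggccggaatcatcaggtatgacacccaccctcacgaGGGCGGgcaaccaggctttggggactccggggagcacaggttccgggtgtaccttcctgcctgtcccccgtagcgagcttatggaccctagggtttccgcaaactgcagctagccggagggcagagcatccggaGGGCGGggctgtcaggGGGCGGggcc
Pmaip1: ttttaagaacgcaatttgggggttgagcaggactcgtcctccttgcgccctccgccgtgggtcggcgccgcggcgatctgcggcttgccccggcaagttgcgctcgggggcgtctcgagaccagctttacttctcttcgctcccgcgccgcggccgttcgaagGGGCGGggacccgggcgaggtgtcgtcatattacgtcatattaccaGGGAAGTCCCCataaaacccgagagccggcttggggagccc
Bcl2l11: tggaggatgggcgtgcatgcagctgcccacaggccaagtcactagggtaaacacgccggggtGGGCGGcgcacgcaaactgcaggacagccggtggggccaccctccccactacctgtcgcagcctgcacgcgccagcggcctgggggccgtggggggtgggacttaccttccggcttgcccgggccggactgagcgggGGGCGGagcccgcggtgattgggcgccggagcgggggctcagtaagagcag
Bak1: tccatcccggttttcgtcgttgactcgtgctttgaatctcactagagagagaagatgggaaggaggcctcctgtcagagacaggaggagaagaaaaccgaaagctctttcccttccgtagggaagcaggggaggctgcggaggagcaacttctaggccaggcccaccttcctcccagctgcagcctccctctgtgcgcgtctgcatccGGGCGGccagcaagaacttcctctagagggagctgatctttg

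GGGCGG occurred 3 times in the Bid window, 2 times in Bcl2l11 and once each in Pmaip1 and Bak1, and it occurs in 30.5% of the 33469 RefSeq windows of the same length. Of the 8 members with a RefSeq entry, only Mcl1 also held it, while Bcl2, Bad and the 4 start sites listed for Bcl2l1 did not. Bax, whose groups overlapped, and Bbc3 had no entry and could not be compared. GC content was 62.8% for Bid, 64.8% for Pmaip1, 72% for Bcl2l11 and 57.6% for Bak1. It was 62% for Mcl1, 52.4% for Bad, 33.6% for Bcl2 and between 41.2% and 60% at the Bcl2l1 starts. The NF-kB consensus was found in Pmaip1, as 2 overlapping matches on the minus strand from position -41 to -31 before the start, and in Mcl1, against 4.24% of all windows. TTCNNNGAA, the STAT element, was found in Bad and at 2 of the 4 Bcl2l1 starts (7.67% of all windows). The windows of these 2 starts overlap and hold the same genomic matches, TTCGGAGAA and TTCATTGAA. These are letter matches on both strands, and no binding was measured.

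Levels per length, in RNA that the methods describe as treated with RNase R, differed widely between the members. In intact nerves the order by mean FPKM was Pmaip1 (52.98), Bax (44.7), Bak1 (31.1), Bid (30.0), Bad (25.6), Bcl2l1 (16.4), Bcl2l11 (7.32) and Bcl2 (3.15). The only neighbours in this order whose nerves overlapped were Bak1 and Bid. In crushed nerves Bid (34.9 FPKM) stood above Bak1 (33.7 FPKM), again with overlapping nerves, and the order was otherwise unchanged. The most abundant member, Pmaip1, had a higher mean FPKM than 86.2% of the genes tested, and the least abundant, Bcl2, than 20.4%.

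**Figure D2:**
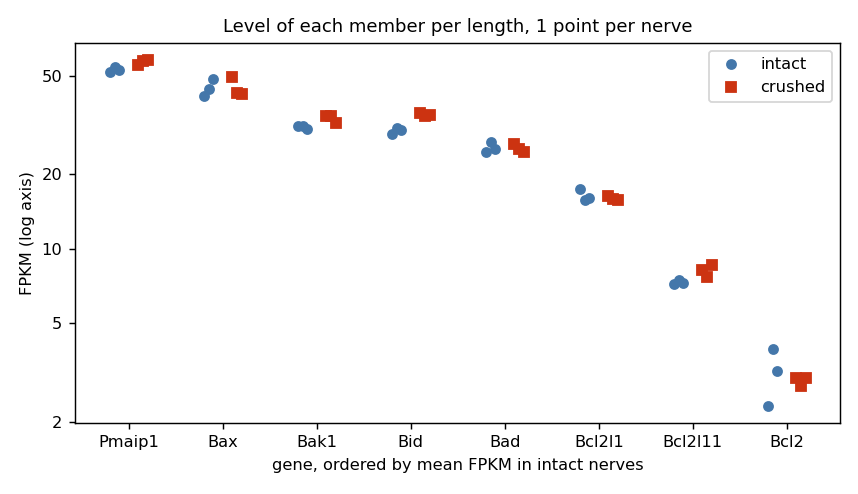
FPKM (vertical log axis) of the 8 members, ordered by their mean in intact nerves, with 1 point per nerve for 3 intact (blue circles) and 3 crushed (red squares) nerves. Pmaip1 and Bax lie highest, Bcl2 lies lowest at about 3 FPKM, and only Bak1 and Bid overlap as neighbours.

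Bcl2, the founding survival protein of the family, lies on chromosome 13 from 26605426 to 26769374 (ENSRNOG00000002791, Rnor_6.0, as are all gene positions from the table). Read counts were low, at 70, 123 and 94 in the intact nerves (in the order of their replicate numbers, as below) and 96, 89 and 88 in the crushed ones. The crushed nerves all lay between the lowest and the highest intact nerve. Normalized CPM was 3.74 ± 0.949 (SD, n = 3) in intact and 3.44 ± 0.136 (SD, n = 3) in crushed nerves, which gave a log2 fold change of -0.13 ± 0.181 (SE, edgeR adjusted p = 0.784). The 95% interval of the change ran from -0.52 to 0.27 on the log2 scale, the widest among the members. The intact nerves varied by 25.4% of their mean, where counting error alone would give 10.2%. Without intact nerve 2 the log2 fold change was 0.07.

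Bcl2l1 encodes BCL-XL, a survival protein that many dividing and non-dividing cells depend on, and was the more abundant of the survival members measured. It lies on chromosome 3 from 148259596 to 148313810 (ENSRNOG00000007946). Normalized CPM was 114.4, 102.6 and 104.1 without injury and 104.9, 102.2 and 101.4 after crush. The groups overlapped, with intact nerve 1 above all the others. The log2 fold change was -0.06 ± 0.0505 (SE, edgeR adjusted p = 0.630), with a 95% interval from -0.17 to 0.05. A pseudogene copy, Bcl2l1-ps1, has a row of its own in the table, so that reads could be shared between them.

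Of the effectors, Bax resides mainly in the cytosol and moves to mitochondria on activation. It lies on chromosome 1 from 101451802 to 101457207 (ENSRNOG00000020876). The intact nerves gave 57.5, 60.8 and 66.7 normalized CPM, and the crushed nerves 67.4, 58.0 and 57.6. The groups covered nearly the same range, and crushed nerve 1 was the highest of the 6. The log2 fold change was -0.02 ± 0.0746 (SE, edgeR adjusted p = 0.942), with a 95% interval from -0.18 to 0.15. The value turned positive without intact nerve 3 (0.05), crushed nerve 2 (0.02) or crushed nerve 3 (0.02).

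Bak1, the effector that sits constitutively in the mitochondrial membrane, lies on chromosome 20 from 5609629 to 5618221 (ENSRNOG00000000485). The intact nerves gave 59.5, 59.7 and 57.9 normalized CPM, and the crushed nerves 64.7, 64.8 and 60.3. All crushed nerves were above all intact nerves, though crushed nerve 3 exceeded the highest intact nerve only narrowly. The log2 fold change of 0.10 (SE 0.0502) did not pass the test (edgeR adjusted p = 0.366).

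Among the BH3-only members, Bid links death receptors to mitochondria, since Casp8 cuts it into an active fragment. It lies on chromosome 4 from 153442218 to 153465203 (ENSRNOG00000012439). Its reads numbered 1486, 1620 and 1491 without injury and 1913, 1850 and 1731 after crush. After normalization the intact nerves had 58.7, 61.4 and 60.2 CPM and the crushed nerves 70.05, 68.1 and 69.1 CPM. The gap between the groups was wider than the spread within either. That spread was 2.22% of the mean in intact and 1.38% in crushed nerves. Counting error alone would give more, 2.55% and 2.34%. Bid rose by 0.20 on the log2 scale (SE 0.0461, 95% interval 0.10 to 0.30, edgeR adjusted p = 0.0427), which is an increase of 14.9%. It ranked 351 by p among the 12393 genes tested. The call was close to the limit, and with the replicate number as a block the edgeR adjusted p was 0.0885. When any 1 of the 6 nerves was left out, the adjusted p lay between 0.0502 (without intact nerve 1) and 0.191 (without crushed nerve 1), with the log2 fold change between 0.19 and 0.22. The summed level of the 4 mural cell markers also differed, at 12.4 to 13.8 normalized CPM in intact and 7.21 to 8.21 in crushed nerves, with Rgs5 at 0 and Acta2 at no more than 3 counts in every nerve. Pdgfrb was the mural marker that fell (log2 fold change -0.77, edgeR adjusted p = 0.00106). That of the 11 Schwann cell markers was 65.4 to 69.7 normalized CPM in intact and 63.2 to 63.9 in crushed nerves. The 4 neutrophil markers, with S100a9, Mpo and Csf3r at 0, summed to no more than 0.158 CPM in any nerve. The macrophage markers (1.93 to 3.11 CPM in intact and 2.42 to 3.15 in crushed nerves), the fibroblast markers (63.6 to 70.7 and 62.5 to 69.1 CPM) and the endothelial markers (1.13 to 1.90 and 1.88 to 2.47 CPM) overlapped between the groups in their sums. Among the fibroblast markers, Col1a1 fell (log2 fold change -0.69, edgeR adjusted p = 0.000662), with every crushed nerve below every intact nerve, while Pdgfra, which made up most of the sum, had a log2 fold change of 0.19 (edgeR adjusted p = 0.166). The part of these markers in this result, and in those of the other genes that rose, was not tested.

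Bcl2l11 encodes BIM, a BH3-only protein that binds all survival proteins and is induced when trophic support is withdrawn. It lies on chromosome 3 from 120726906 to 120764192 (ENSRNOG00000016551). The intact nerves gave 42.1, 43.7 and 42.5 normalized CPM, and the crushed nerves 47.5, 44.6 and 49.5. The crushed nerves were all higher, but varied more (5.25% of their mean, against 2.05% in intact nerves). The log2 fold change was 0.14 (SE 0.0570, edgeR unadjusted p = 0.0308 and adjusted p = 0.252), so that it did not pass.

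Pmaip1 encodes NOXA, a BH3-only protein that neutralizes MCL1 in particular. It lies on chromosome 18 from 62174670 to 62181102 (ENSRNOG00000018770). The intact nerves gave 144.6, 150.9 and 146.3 normalized CPM, and the crushed nerves 152.1, 158.7 and 159.3. Crushed nerve 1 was only just above intact nerve 2. The log2 fold change of 0.09 (SE 0.0407) did not pass the test (edgeR adjusted p = 0.313).

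Bad, whose protein is held inactive by phosphorylation downstream of growth factors, lies on chromosome 1 from 222198534 to 222207453 (ENSRNOG00000021147). The intact nerves gave 24.9, 27.1 and 25.3 normalized CPM, and the crushed nerves 26.4, 25.3 and 24.5. The groups overlapped, and the log2 fold change was -0.02 ± 0.0660 (SE, edgeR adjusted p = 0.921), with a 95% interval from -0.16 to 0.13. It was 0.02 without intact nerve 2 and 0.00634 without crushed nerve 3.

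Survival and death members were then set side by side within each nerve, as a description with no test. The FPKM of Bcl2l1 was lower than that of Bax in every nerve, with a log2 ratio of -1.45 ± 0.179 (SD, n = 3) in intact and -1.48 ± 0.103 (SD, n = 3) in crushed nerves. The log2 ratio of Bcl2 to Bax was -3.86 ± 0.340 in intact and -3.93 ± 0.113 in crushed nerves, and that of Bcl2l1 to Bad was -0.64 ± 0.142 and -0.68 ± 0.0281. In these 3 ratios the groups overlapped. The log2 ratio of Bcl2l1 to Bcl2l11 was 1.28, 1.07 and 1.13 without injury and 0.98, 1.04 and 0.87 after crush. Here all crushed nerves were below all intact nerves, by 0.20 between the means. Bcl2l11 by itself also separated the groups while Bcl2l1 did not, so this ratio is not independent of that result. The share of other gene pairs that separate was not computed. Bcl2 and Bcl2l1 together made up 9.64%, 9.16% and 8.98% of the summed FPKM of the 8 members in intact nerves and 8.43%, 8.44% and 8.54% in crushed nerves. This share lacks Mcl1 and Bbc3 and weighs abundant members most.

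**Figure D3:**
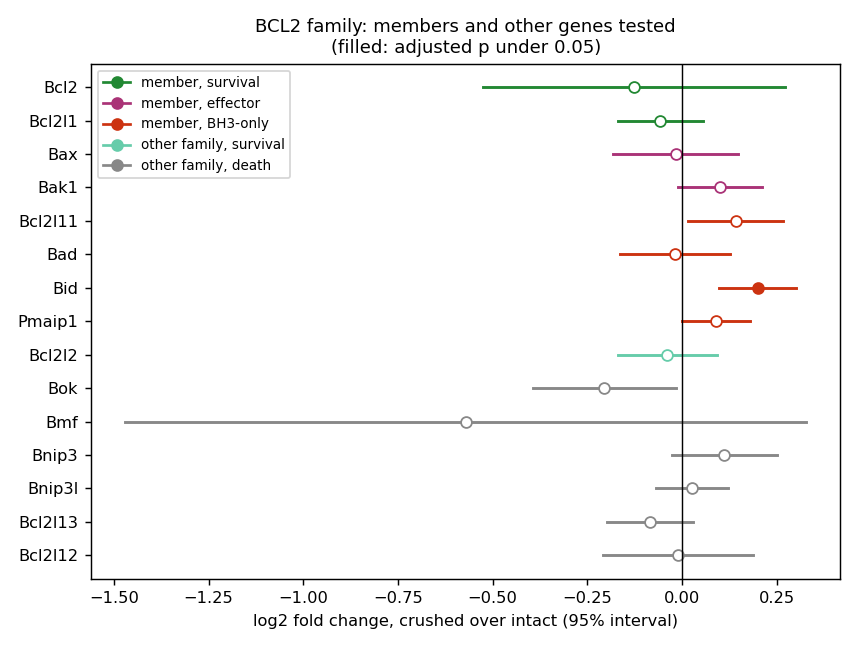
Log2 fold change (horizontal axis, crushed over intact) of the 8 members and the 7 other family genes tested, with 95% intervals as lines and colours for the role under which each gene was listed. Only Bid is filled (adjusted p under 0.05), at 0.20, and Bcl2 and Bmf have the widest intervals.

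Of 13 other names of the BCL2 family, 11 had a row and 7 passed the filter. None of the 7 rose or fell in edgeR, DESeq2 or limma. At an unadjusted p under 0.05, 1 of them, Bok, was lower and 0 were higher, against 1177 and 832 of 12393 genes. The median log2 fold change of the 7 was -0.04. Bok, a relative of Bax and Bak1, gave 12.5, 12.4 and 12.03 normalized CPM without injury and 11.3, 10.8 and 9.94 after crush. All crushed nerves were below all intact nerves, with a log2 fold change of -0.20 (edgeR adjusted p = 0.272). Bcl2l2, the survival protein BCL-W, had a log2 fold change of -0.04 (edgeR adjusted p = 0.796). Bnip3 and Bnip3l, which also act as mitophagy receptors, had log2 fold changes of 0.11 and 0.03, and their mean levels of 50.8 and 52.7 FPKM in intact nerves were close to that of Pmaip1. Bcl2l13 (-0.08) and Bcl2l12 (-0.01) did not pass the test either. Bmf, a BH3-only protein of the cytoskeleton, had between 11 and 19 counts in intact and between 5 and 16 in crushed nerves, so that its log2 fold change of -0.57 had a 95% interval from -1.47 to 0.33. Bcl2l10 had between 3 and 8 counts per nerve, and Bik and Bcl2l14 no more than 3. Bcl2a1, a survival gene typical of leukocytes, had 0 counts in all 6 nerves, where 3 counts corresponded to between 0.110 and 0.121 normalized CPM.

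Downstream of the family, 17 rows of the apoptosome and caspase list passed the filter. In edgeR's quasi-likelihood test 0 of them rose and 0 fell, against 1.47% and 1.65% of all genes tested. At an unadjusted p under 0.05, 2 were higher and 1 was lower, against 832 and 1177 of the 12393 genes tested. DESeq2 called 1 of the 17 rows, that of Cycs on chromosome 18 (adjusted p = 0.0335), and limma 0. In edgeR, Apaf1 passed without intact nerve 3 (adjusted p = 0.0333), and Dffa, which encodes the inhibitor of the caspase-activated DNase, passed without crushed nerve 2 (adjusted p = 0.0380). The median log2 fold change of the 17 rows was 0.05. The smallest p-values were those of Apaf1, the scaffold of the apoptosome, and of 1 row named Cycs, the gene name of cytochrome c. For Apaf1 the intact nerves gave 51.3, 50.4 and 57.3 normalized CPM, and the crushed nerves 62.3, 60.1 and 61.8. All crushed nerves were higher, which gave a log2 fold change of 0.21 ± 0.0585 (SE, edgeR adjusted p = 0.0896). The row of Cycs on chromosome 18 from 62476383 to 62476700 was lower in all crushed nerves (log2 fold change -0.24, edgeR adjusted p = 0.0912), while the row on chromosome 4 from 80331227 to 80333326 had a log2 fold change of -0.04 (edgeR adjusted p = 0.826). Reads could be split between these rows, and the lower value is that of the chromosome 18 row only. Casp9, named for its place in the pathway after its value was seen, had a log2 fold change of 0.15 (edgeR adjusted p = 0.431). Casp6 had 0 counts in all nerves.

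Of 6 caspase inhibitors tested, 1 rose and 0 fell, against 1.47% and 1.65% of all genes tested. The median log2 fold change of the 6 was 0.07. The gene that rose was Birc3 (cIAP2), a ubiquitin ligase of TNF receptor signaling and a known target of NF-kB. Its reads numbered 145, 139 and 123 without injury and 475, 490 and 500 after crush. In normalized CPM this was 5.32 ± 0.386 (SD, n = 3) against 18.5 ± 1.33 (SD, n = 3), a 3.47-fold rise (log2 fold change 1.79 ± 0.0981 SE, edgeR adjusted p = 2.89e-06). The change of Birc3 was far wider than that of the 8 BCL2 family members, none of which moved by more than 0.20 on the log2 scale. The other 5 inhibitors, Xiap, Birc2, Birc5, Birc6 and Cflar, had log2 fold changes between -0.07 and 0.16.

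Among 21 regulators of the family, 3 rose, including Stat3 and Nfkb1, and 0 fell, against 1.47% and 1.65% of all genes tested. The median log2 fold change of the 21 was 0.02. The transcription factor Stat3, which drives transcription of Bcl2l1 and Mcl1 in many cells, rose in normalized CPM from 211.2 ± 6.13 to 272.7 ± 4.90 (SD, n = 3), or by 0.37 on the log2 scale (edgeR adjusted p = 0.000421). Nfkb1, the p105 subunit of NF-kB, rose by 0.33 on the log2 scale (edgeR adjusted p = 0.0125). Without crushed nerve 1 or 2 the adjusted p of Nfkb1 was 0.0598 and 0.0707 in the same edgeR test. For both genes every crushed nerve lay above every intact nerve.

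**Figure D4:**
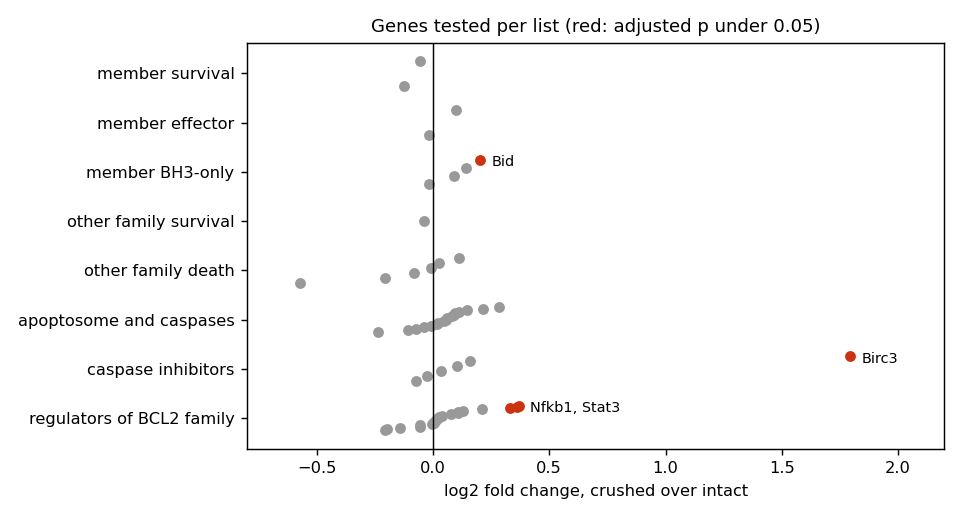
Log2 fold change (horizontal axis, crushed over intact) of every tested gene of the member lists and of the pathway lists, 1 point per gene, red where the adjusted p was under 0.05. Birc3 at 1.79 stands far from the other genes, Stat3 and Nfkb1 lie at 0.37 and 0.33, and Bid at 0.20 is the only red point among the members.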

How the data were processed

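RNA-seq read counts were available for 3 crushed and 3 intact sciatic nerves. The authors deposited raw counts per Ensembl gene and FPKM values, which they computed from the reads. The processing notes in the labels name HISAT2, StringTie 1.3.0 and the Rnor_6.0 build, without stating their order. The counting program and the annotation release are not given in the sources used here. Columns were matched to nerves by sample title, and 0 columns of values belonged to no sample.

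From the counts, log2 fold changes, standard errors (from the test statistic) and p-values were computed with edgeR 4.0.16 (TMM normalization, filterByExpr with a minimum count of 10, quasi-likelihood test, no replicate block) on all genes of the table. P-values were adjusted with the Benjamini-Hochberg method over the 12393 genes tested. Values of genes too low for the filter came from the fit without it. Levels were compared between genes only as FPKM. The alternatives were RLE size factors, DESeq2 1.42.0, no filter, limma 3.58.1 with a trend on log2(FPKM + 0.1) and on log2(FPKM + 1), the replicate number as a block, each nerve left out in turn, the study's limits and an unadjusted p under 0.05. The R version was 4.3.3, and the calculation was tested on simulated data.

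The members and gene lists were chosen with earlier results of these data known. The text names all members, all other family genes with a count, and, per pathway list, up to 3 genes per direction with the smallest p among those with an adjusted p under 0.05, or else the 2 with the smallest p. Some genes of these lists are not reported here by name, and the counts include them. The promoter motifs were chosen after the values were seen. Promoters came from the RefSeq table of the GRCr8 build, which was used for sequence only and has entries for 8 of the 10 members. The design text of the series calls the nerves biological replicates. Within a group, counts differed by more than sampling noise (chi-square over its degrees of freedom, 3.27 to 11.8 for the pairs of nerves), so each nerve was kept as 1 sample. Floors of 3 counts cover counting error only.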

Additional observations from a re-analysis of the deposited data

How the results depend on the processing

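Bid was the only member called. Its log2 fold change stayed between 0.19 and 0.22 under the 12 alternative fits, and its adjusted p was under 0.05 in 4 of them, with RLE size factors (0.0403), DESeq2 (0.0284), limma on log2(FPKM + 0.1) (0.0353) and limma on log2(FPKM + 1) (0.0349). The number of members higher in crushed nerves, 1 as reported, was 0 without the filter on low counts (adjusted p of Bid 0.0568), between 0 and 0 when each nerve was left out in turn, 0 by the study's limits and 2 at an unadjusted p under 0.05. The number lower was 0 in every setting run. In the fits without 1 nerve, fewer samples entered. The cause of the other shifts was not tested.

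With the replicate number as a block, 0 members were higher and the adjusted p of Bid was 0.0885 (log2 fold change 0.20). The labels do not say whether same-numbered nerves came from the same rat. Correlations of their deviations lay between -0.0148 and 0.0756, which with 3 nerves per group cannot decide this. The main test used no pairing, and the call of Bid depended on that choice.

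Of the 59 tested rows of the members and lists, 19 turned sign under at least 1 of the 12 alternatives, none of them called in any, and 40 did not. Among the 19 were Xiap (-0.0823 to 0.0463) and the row of Cycs on chromosome 4 (-0.109 to 0.0261). When each nerve was omitted in turn, the log2 fold change ran from -0.297 to 0.0704 for Bcl2, from -0.0945 to 0.0458 for Bax, from -0.0462 to 0.0230 for Bad, from -0.0855 to 0.00720 for Bcl2l2, from -0.000778 to 0.0515 for Bnip3l and from -0.0579 to 0.0953 for Bcl2l12. Bcl2l12 also turned with limma, to 0.0113 on log2(FPKM + 0.1) and 0.0102 on log2(FPKM + 1). Birc3 and Stat3 were called in all 12 alternative fits and Nfkb1 in 10. At this depth the interval of Bcl2, with 70 to 123 counts per nerve, still includes a change of -30.5%.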
